A study of Mus musculus with 11 samples.

Results

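The 37 genes described here encode the contractile apparatus of heart muscle, the calcium cycle that drives it, and the energy supply and transcriptional regulators that accompany them. They were taken as a fixed list of gene symbols and matched by symbol, and all 37 were found among the 24062 genes of the Ift88 count table and among the 26667 genes of the Dzip1 count table. RNA sequencing was done on leaflets of the mouse mitral valve, the left atrioventricular valve, in 11 libraries from 2 experiments. The Ift88 experiment held 2 wild-type libraries, NfatC1Cre(+) with Ift88+/+, and 3 knockout libraries, NfatC1Cre(+) with Ift88f/f. Both of these groups carry the Cre, so they differ by the floxed Ift88 gene, which encodes an intraflagellar transport protein needed to build cilia. The Nfatc1 promoter is active in endocardial and valve endothelial cells, so cells outside that lineage, heart muscle among them, are not the direct target of the deletion. The Dzip1 experiment held 3 libraries of Dzip1S14R/+ leaflets, heterozygous for a serine-to-arginine change in a protein of the ciliary base, and 3 libraries of Dzip1+/+ leaflets, with no Cre in either genotype label. The labels give no age, do not say how many animals went into a library, and do not say that the libraries of a group came from separate animals, so the p-values measure the spread between these libraries. Replicate numbers below only name the libraries.

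Heart muscle contracts when thin filaments of actin, tropomyosin and the troponin complex slide along thick filaments of myosin, inside a repeating unit called the sarcomere. Z-discs anchor the thin filaments, the M-band holds the thick filaments, and titin spans from one to the other as a molecular spring. A beat begins when calcium enters through the L-type channel and opens the ryanodine receptor of the sarcoplasmic reticulum, and it ends when the pump SERCA2 returns the calcium under the restraint of phospholamban. A mitral leaflet is built mainly of valve interstitial cells and matrix under an endothelial cover, and myocardium joins it at the annulus and along the atrial face. The summed level of these genes in a leaflet library is therefore a measure of heart muscle RNA in the dissected piece. In such bulk tissue, fewer cardiomyocytes and less RNA per cardiomyocyte cannot be told apart.

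The start-site sequences of the members were searched for motifs of muscle regulators. RefSeq sequence upstream of the annotated start (build GRCm38.p6) was at hand for 28 of the 37 members (not for Atp2a2, Itgb1bp2, Myocd, Myom2, Sh3bgr, Srl, Tcap, Trdn and Xirp1) and for 27025 genes in all. The 250 bases before each start were searched on both strands. A CArG box, the binding motif of serum response factor, with which myocardin acts on muscle genes, was present in 4 of the 28 members (14.3%) and in 1.62% of all promoters. The MEF2 site, the motif of another muscle regulator family, was present in 5 of 28 (17.9%) and in 3.42% of all promoters. The GATA motif AGATAA was present in 7 of 28 (25.0%) against 11.4%, and its variant TGATAA in 2 of 28 (7.14%) against 9.21%. AAGTG, the core of the Nkx2-5 motif, was present in 11 of 28 (39.3%) against 44.3%, and the E-box CACGTG in 2 of 28 (7.14%) against 6.86%. The letters TATAAA, searched on the gene's strand only, were present in 1 of 28 members (3.57%, Pln) against 8.94% of all promoters. These matches describe letters in the window and say nothing of binding in these leaflets.

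Of the 4 CArG windows, 3 are shown, 5′ to 3′ on the gene's strand with the box in capitals, because they belong to one member each of the thin filament, the M-band and the Z-disc. Each is printed as the stretch of its window that holds no annotated exon of GENCODE M21. Actc1 lies on the minus strand at chr2:114052888-114053125, with its box 47 to 38 bases before the start. The Actc1 stretch lies inside the GENCODE M21 gene (chr2:114047282-114053548), between exons of that model, because the RefSeq start is downstream of the GENCODE one. Myom1 lies on the plus strand at chr17:71019307-71019520, with its box 99 to 90 bases before the start. It too lies between exons inside the GENCODE gene (chr17:71002633-71126856). Ldb3 lies on the minus strand at chr14:34588683-34588931, with its box 35 to 26 bases before the start. The other member with a box was Nebl, whose window is not shown.
Actc1: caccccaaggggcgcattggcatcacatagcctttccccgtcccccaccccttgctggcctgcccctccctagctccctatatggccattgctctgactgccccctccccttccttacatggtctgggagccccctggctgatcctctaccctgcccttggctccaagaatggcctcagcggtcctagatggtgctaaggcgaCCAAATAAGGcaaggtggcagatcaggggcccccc
Myom1: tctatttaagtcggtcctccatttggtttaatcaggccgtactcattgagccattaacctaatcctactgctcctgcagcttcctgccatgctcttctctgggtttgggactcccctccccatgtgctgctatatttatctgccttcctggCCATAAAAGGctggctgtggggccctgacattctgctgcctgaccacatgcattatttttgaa
Ldb3: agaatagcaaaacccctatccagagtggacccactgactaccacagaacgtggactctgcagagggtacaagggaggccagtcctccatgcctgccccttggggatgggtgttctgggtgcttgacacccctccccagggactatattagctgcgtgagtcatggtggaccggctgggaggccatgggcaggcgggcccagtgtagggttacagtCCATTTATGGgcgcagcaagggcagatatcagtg

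Library totals ran from 23361414 to 53789026 counts for Ift88 and from 75130621 to 93475025 counts for Dzip1. Levels are given in counts-per-million (CPM), the counts of a gene scaled by the library total. Ift88 itself was counted 198 and 1143 times in wild type and 95, 166 and 10 times in the knockout, which is 6.31 and 21.2 CPM in wild type and 3.03, 4.12 and 0.428 CPM in the knockout. The Ift88 ranges did not overlap, with a log2 fold change of -2.48 ± 1.13 (SE; adjusted p = 0.802) in edgeR's quasi-likelihood test. Dzip1 measured 30.4, 27.6 and 32.3 CPM in wild type and 29.5, 28.0 and 28.2 CPM in Dzip1 S14R/+, with a log2 fold change of -0.061 ± 0.059 (SE; adjusted p = 0.891). The biological coefficient of variation, edgeR's estimate of the spread between libraries of a group, was 87.7% for the Ift88 libraries and 7.85% for the Dzip1 libraries. Markers of the labelled tissue were present in every library: 12 valve interstitial genes summed to 2386 and 8385 CPM in wild type and 11780.3, 12445 and 8466 CPM in the knockout of the Ift88 experiment. Wild-type replicate 1 held the lowest such sum and also the lowest sum of 8 endothelial and endocardial genes, which came to 211 and 2479.8 CPM in wild type and 1585, 2682 and 1869 CPM in the knockout. In the Dzip1 experiment the 12 valve interstitial genes summed to 7636, 8378 and 9435 CPM in wild type and 7448, 7703 and 7245 CPM in Dzip1 S14R/+.

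Heart muscle transcripts were abundant in 10 of the 11 libraries and nearly missing from 1, and the files do not settle what sets that library, or its label, apart. The 37 genes summed to 62814 CPM in Ift88 wild-type replicate 1 and to 332 CPM in wild-type replicate 2. These sums are 6.28% and 0.0332% of all counts, so the 2 libraries of the wild-type group stand at the top and the bottom of the whole series. The 3 knockout libraries lay between them at 42905, 34879 and 45872 CPM, or 4.29%, 3.49% and 4.59% of their counts. Dzip1 wild-type libraries held 34082, 35554 and 31562 CPM, and Dzip1 S14R/+ libraries 36056, 35778 and 35953 CPM. The Dzip1 libraries therefore all carried between 3.16% and 3.61% of their counts in these genes. The 2 tables were analysed apart, and levels set across them are descriptions without a test.

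**Figure D1:**
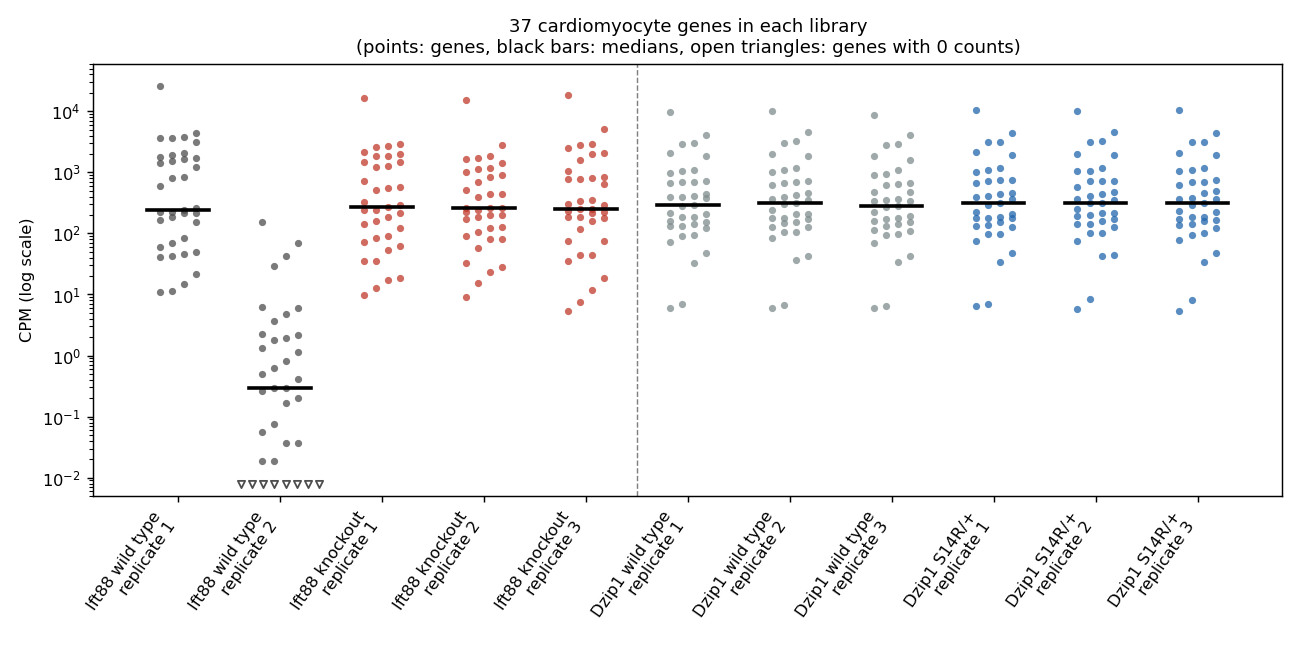
Each point is 1 of the 37 genes, at its level in CPM on a log axis, for each of the 11 libraries; black bars are medians and open triangles are genes with 0 counts. Ift88 wild-type replicate 2 has a median of 0.297 CPM and 8 genes with 0 counts, while the other 10 libraries have medians between 238 and 318 CPM.

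Wild-type replicate 2 was the lowest library of its experiment for each of the 37 members. Of these, 8 had 0 counts there, at a library total of 53789026 counts. They were the M-band gene Myom2, the Z-disc gene Myoz2, Xirp1, Itgb1bp2, the calcium handling genes Trdn, Hrc and Cacna1c, and the mitochondrial creatine kinase Ckmt2. A count of 0 in that library allows up to 3 counts, or 0.0558 CPM, by counting error alone. A further 5 members had 1 to 3 counts, and 23 of the 37 lay under 1 CPM. Wild-type replicate 1 exceeded replicate 2 by a median of 817-fold over the members, with genes at 0 counts entered at 3 counts, and by over 1000-fold in 15 members. The smallest ratios were 20.6 for Tpm1, which encodes tropomyosin 1, and 23.8 for Atp2a2, which encodes the calcium pump SERCA2. Both of these genes are also expressed outside muscle. Tpm1 made up 46.6% of the member counts of wild-type replicate 2, Atp2a2 21.1% and Tnnt2 12.7%. In the other 4 libraries of the experiment the cardiac actin gene Actc1 led instead, with 38.1% to 43.2% of the member counts.

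**Figure D2:**
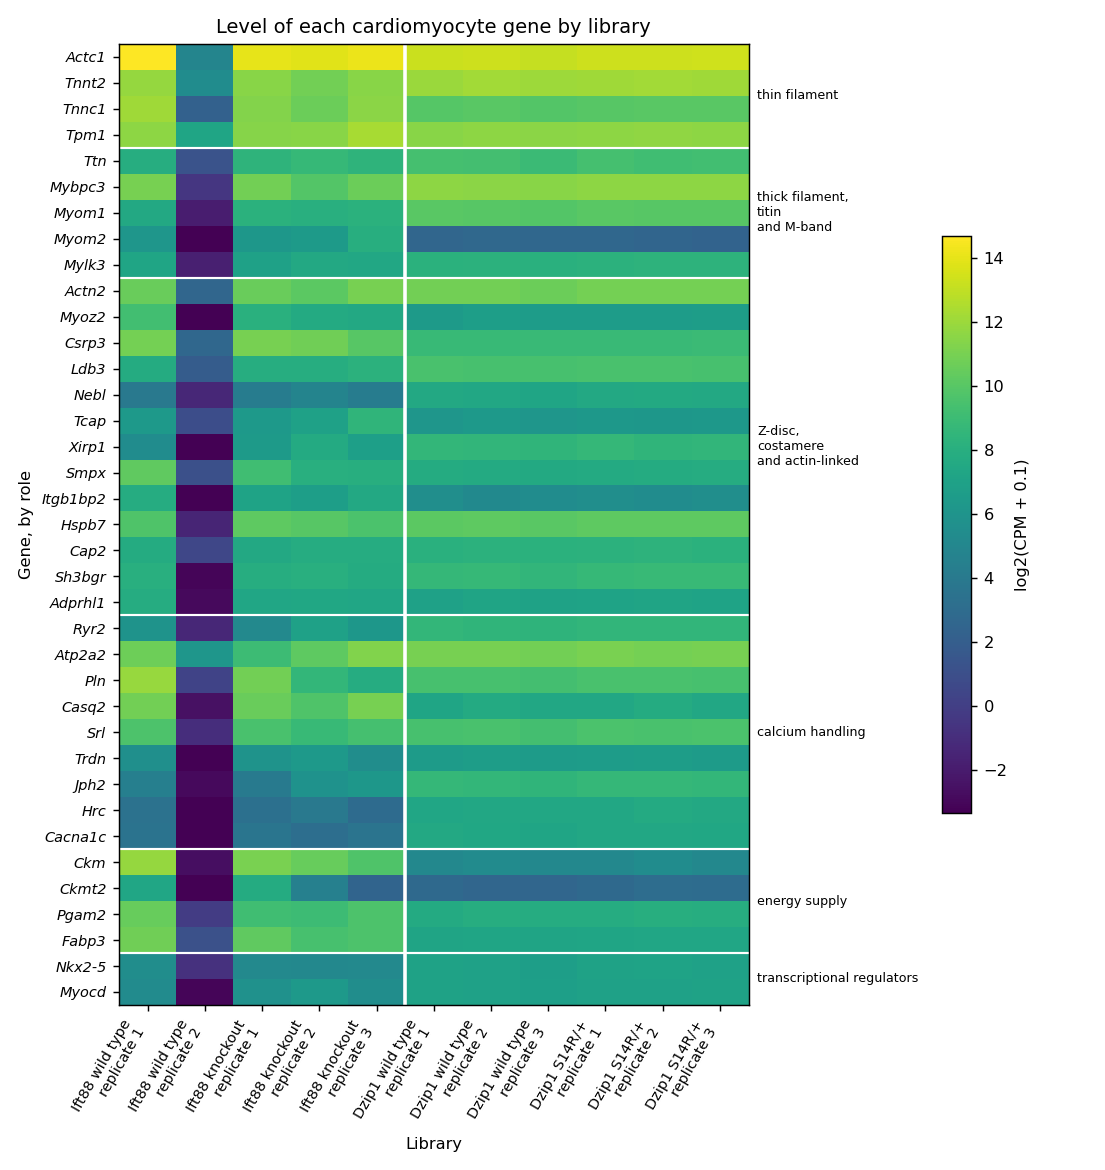
Colour gives log2(CPM + 0.1) of each of the 37 genes (rows, grouped by role) in each of the 11 libraries (columns), with a white line between the 2 experiments. The column of Ift88 wild-type replicate 2 holds the lowest value of its experiment in every row, with Tpm1 at 155 CPM as its highest value, and the 6 Dzip1 columns are nearly alike.

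The Ift88 comparison asked which transcripts change in leaflets when Ift88 is deleted in the Nfatc1 lineage. By edgeR's test on the counts of all 14244 genes with enough reads, no member was called higher or lower in the knockout at an adjusted p of 0.05, and 0 genes in all were called (0% higher and 0% lower). At an unadjusted p under 0.05, 677 genes were higher (4.75%) and 179 lower (1.26%), none of them a member. DESeq2, run as an alternative, called 358 genes higher (2.09%) and 18 lower (0.105%), again with 0 members among them. All 37 members passed the filter on low counts, and their adjusted p-values in edgeR lay between 0.895 and 0.999. The standard errors of their log2 fold changes were 1.17 to 2.44, so the lack of calls does not show that levels were equal. The fitted log2 fold change was positive for 29 of the 37 members, against 49.4% of all genes tested, and negative for 8, against 50.6%. Its median over the members was 0.57 against -0.013 over all genes. The 3 knockout libraries lay above both wild-type libraries in 7 members (18.9%, against 15.4% of all genes) and below both in 0 (against 7.55%). The 7 were Ttn, Myom1, Myom2, Ldb3, Nebl, Xirp1 and Myocd. Wild-type replicate 2 was the lowest library for all 37 members, so no member could lie below both wild-type libraries. For the members, lying above both therefore meant only lying above wild-type replicate 1.

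The direction depended on which wild-type library was the comparator. Against wild-type replicate 1 alone, 27 members were lower in the knockout (against 42.9% of all genes) and 10 higher (against 57.1%), with a median log2 fold change of -0.43 against 0.25 over all genes and 0 called. Against wild-type replicate 2 alone, all 37 members were higher, against 55.2% of all genes, and 32 were called, among 178 genes called higher (1.16% of 15340) and 9 lower (0.0587%). The median was then 9.62, or 9.56 with the 8 genes at 0 counts entered at their lower bound. In both of these fits the lone wild-type library is assumed to vary as the knockout libraries do. The title prefix IR28N is shared by 3 libraries, namely wild-type replicate 1 and knockout replicates 1 and 2. Within these the median member log2 fold change was -0.50, with 0 members called, 28 negative (against 43.6% of all genes) and 9 positive (against 56.4%).

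**Figure D3:**
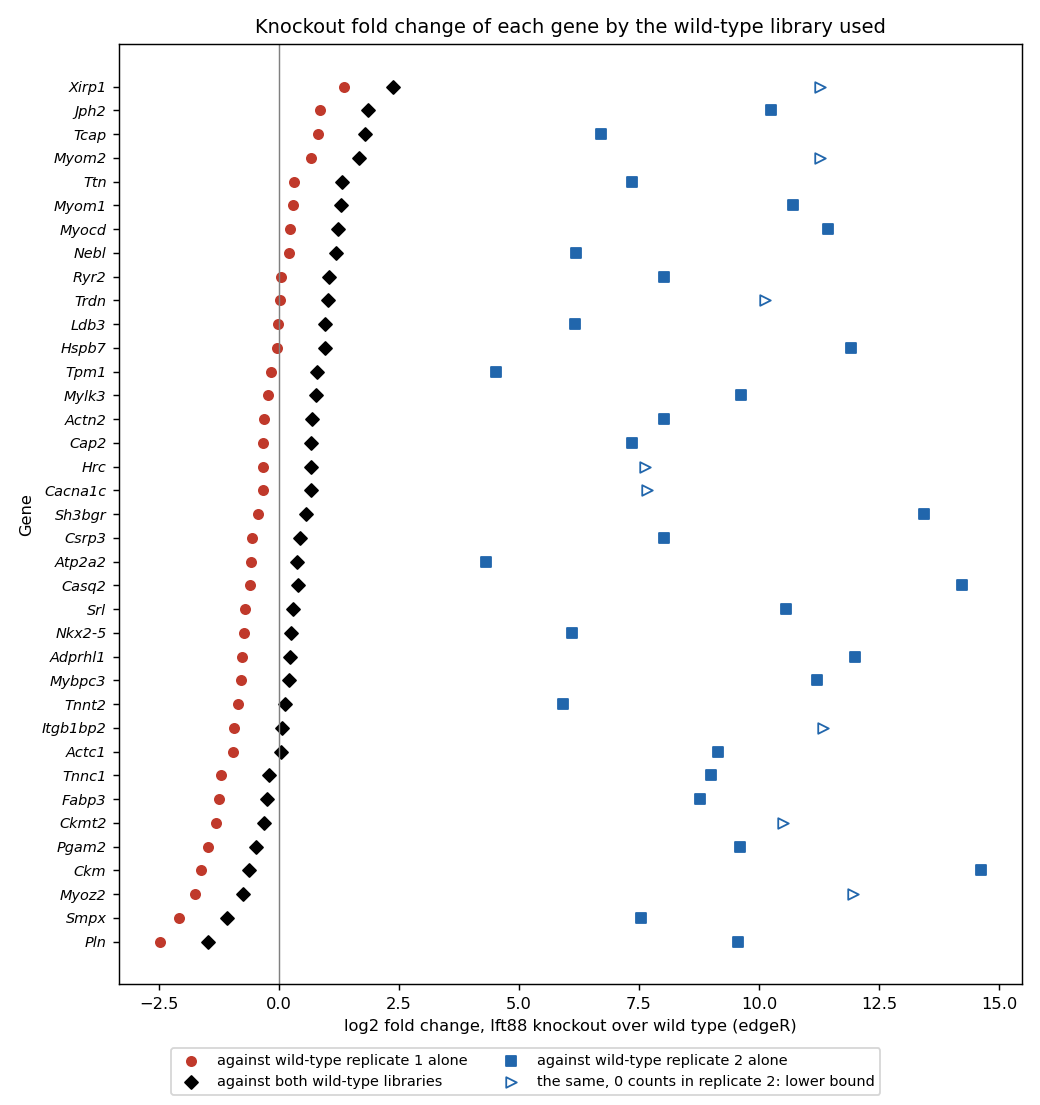
The horizontal axis is the log2 fold change of Ift88 knockout over wild type from edgeR for each of the 37 genes (vertical axis), against both wild-type libraries (diamonds) and against each one alone (circles and squares); triangles are lower bounds for genes with 0 counts in wild-type replicate 2. Circles lie between -2.47 and 1.37, while squares and triangles start at 4.31.

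Thin filament genes were the most abundant role, with between 57.1% and 63.7% of the member counts in 4 of the libraries and 69.7% in wild-type replicate 2. Actc1, cardiac alpha-actin, measured 26161 and 29.7 CPM in wild type and 16346, 15068 and 18415 CPM in the knockout. The library values overlapped, with the knockout values between the 2 wild-type ones, and the log2 fold change was 0.036 ± 1.84 (SE; adjusted p = 0.999). Reads of Actc1 can be shared with the near-identical actins Acta1 and Acta2, and how the counting treated such reads is not stated in the labels. Tnnt2, which encodes the troponin that binds tropomyosin, measured 3681 and 42.3 CPM in wild type and 2857, 1858 and 2854 CPM in the knockout. Its log2 fold change was 0.14 ± 1.44 (SE; adjusted p = 0.995), and against wild-type replicate 1 alone it was -0.85. Tnnc1, the calcium-sensing troponin, and Tpm1 followed at 1624 to 4429.8 and 2710 to 5044 CPM outside wild-type replicate 2. Per kilobase of exon, Actc1 ranked first and Tnnc1 next among the members in those 4 libraries, at 9313 to 16169 and 1560 to 4255 RPKM (counts scaled by exon length and library total). The exon length is that of all annotated exons of a gene merged, so this order depends on the annotation. Wild-type replicate 2 had Tpm1 first at 23.8 RPKM.

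The thick filament, titin and M-band genes had a median log2 fold change of 1.29, with all 5 positive and 0 called. Mybpc3, myosin-binding protein C, measured 2059 and 0.632 CPM in wild type and 1867, 917 and 1596 CPM in the knockout, which gave 0.20 ± 2.03 (SE; adjusted p = 0.995). Its knockout values lay below wild-type replicate 1 and far above replicate 2. Myom1, the M-band crosslinker myomesin 1, measured 185 and 0.167 CPM in wild type and 292, 261 and 289 CPM in the knockout. All 3 knockout values of Myom1 exceeded both wild-type values, with a log2 fold change of 1.29 ± 1.89 (SE; adjusted p = 0.951), and against wild-type replicate 1 alone it was 0.29. Ttn, the titin gene, also showed this order at 238 and 2.29 CPM in wild type and 330.1, 434 and 340 CPM in the knockout. The log2 fold change of Ttn was 1.31 ± 1.50 (SE; adjusted p = 0.930), or 0.32 against replicate 1 alone. Myom2, the M-band gene of M-protein, reached 248 CPM in knockout replicate 3 and 72.2 and 91.2 CPM in the other knockout libraries. Mylk3, the cardiac myosin light chain kinase, kept within 124 to 182 CPM in all libraries but wild-type replicate 2.

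The 13 Z-disc, costamere and actin-linked genes had a median log2 fold change of 0.67, with 11 positive and 0 called. Actn2, the alpha-actinin that crosslinks actin at the Z-disc, measured 1541 and 6.02 CPM in wild type and 1481, 1128 and 1995 CPM in the knockout. Hspb7, a small heat shock protein of muscle, measured 831 and 0.260 CPM in wild type and 1205, 1012 and 776 CPM in the knockout. Neither gene separated the groups, with log2 fold changes of 0.68 ± 1.66 (SE; adjusted p = 0.979) for Actn2 and 0.96 ± 2.05 (SE; adjusted p = 0.974) for Hspb7. Xirp1, an actin-binding repeat protein of intercalated discs, measured 42.7 and 0 CPM in wild type and 90.7, 203 and 117 CPM in the knockout. For Xirp1 the 3 knockout values were all above the wild-type ones, and it had the highest log2 fold change of the 37 at 2.37 ± 2.11 (SE; adjusted p = 0.904). Against wild-type replicate 1 alone Xirp1 stood at 1.37, the highest of the members there too and the only positive one with an unadjusted p under 0.05 (0.0458, adjusted p = 0.301).

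Tcap, telethonin, which caps titin at the Z-disc, measured 84.7 and 1.78 CPM in wild type and 82.9, 125 and 346 CPM in the knockout. Knockout replicate 3 held the top value, 4.18-fold over the lowest of the libraries apart from wild-type replicate 2, and knockout replicate 1 was just under wild-type replicate 1. The log2 fold change of Tcap was 1.79 ± 1.48 (SE; adjusted p = 0.895). Smpx, a small costamere protein, went the other way, from 1232 CPM in wild-type replicate 1 to 562, 262 and 247 CPM in the knockout libraries. Myoz2, calsarcin 1, which binds calcineurin at the Z-disc, had 603 CPM in wild-type replicate 1 against 186 to 275 in the knockout libraries, and 0 counts in wild-type replicate 2. For the remaining genes only the ranges outside wild-type replicate 2 are given. Csrp3, the muscle LIM protein, ranged over 1033 to 2020.5 CPM. Ldb3, which binds alpha-actinin, ranged over 216 to 308 CPM, and Nebl, nebulette, over 15.1 to 28.2 CPM. Itgb1bp2, melusin, spanned 106 to 222 CPM. Cap2, an actin-binding protein, spanned 184 to 228 CPM, Sh3bgr 218 to 263 CPM and Adprhl1 160.4 to 227 CPM. Sh3bgr was the steadiest of the 37 across those 4 libraries, with a highest value 1.21-fold its lowest.

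The 9 calcium handling genes had a median log2 fold change of 0.67, with 8 positive and 0 called, and some of them ranged widely between the knockout libraries. Pln, phospholamban, the brake on SERCA2, measured 3757 and 1.13 CPM in wild type and 1859, 389 and 228 CPM in the knockout. Wild-type replicate 1 and knockout replicate 1 were high, and knockout replicates 2 and 3 were lower, a 16.5-fold range without wild-type replicate 2. Its log2 fold change was -1.47 ± 2.15 (SE; adjusted p = 0.951), the lowest of the members, and -2.47 against wild-type replicate 1 alone. Pln (chr10:53337667-53345987, plus strand, GRCm38) shares 1785 bases of exon with genes on the opposite strand, Cep85l among them, and without a stated strand setting reads of the 2 strands cannot be told apart. Atp2a2, its partner, measured 1668 and 70.0 CPM in wild type and 510.3, 1179.5 and 2481 CPM in the knockout. Its order over the knockout libraries was the reverse of that of Pln. The ratio of Pln to Atp2a2 counts was therefore 2.25 and 0.0162 in wild type and 3.64, 0.330 and 0.0921 in the knockout, while the 6 Dzip1 libraries stayed within 0.337 to 0.373.

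Jph2, junctophilin 2, which ties the sarcoplasmic reticulum to the cell membrane, measured 21.9 and 0.0372 CPM in wild type and 17.1, 57.0 and 74.7 CPM in the knockout. Knockout replicates 2 and 3 were high and knockout replicate 1 lay below wild-type replicate 1, with a log2 fold change of 1.86 ± 1.87 (SE; adjusted p = 0.916). Ryr2, the ryanodine receptor, shared the pattern of a low knockout replicate 1, at 35.3 CPM against 124 and 75.4 CPM in the other knockout libraries and 60.4 in wild-type replicate 1. Casq2, calsequestrin 2, the calcium store of the reticulum, ranged over 846 to 2071 CPM outside wild-type replicate 2, where it had 4 counts. Srl, sarcalumenin, ranged over 444 to 801 CPM and Trdn, triadin, over 44.5 to 80.6 CPM. Hrc, a histidine-rich calcium-binding protein of the reticulum, and Cacna1c, the L-type channel, were low at 7.66 to 15.7 and 9.14 to 12.9 CPM.

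The energy supply genes were the only role with a negative median, -0.39, and all 4 were negative with 0 called. Ckm, the muscle creatine kinase, measured 3664 and 0.0558 CPM in wild type and 2128, 1435 and 833 CPM in the knockout. Each knockout library lay below wild-type replicate 1, yet wild-type replicate 2 had 3 counts, and the log2 fold change was -0.62 ± 2.35 (SE; adjusted p = 0.986). Fabp3, the heart fatty acid-binding protein, measured 1747 and 2.14 CPM in wild type and 1266, 682 and 788 CPM in the knockout, for a log2 fold change of -0.24 ± 1.81 (SE; adjusted p = 0.991). Pgam2, the muscle phosphoglycerate mutase, ranged over 514 to 1416 CPM outside wild-type replicate 2. Ckmt2 varied most of all members, at 164 and 0 CPM in wild type and 213, 23.0 and 5.35 CPM in the knockout. That is a 39.9-fold range without wild-type replicate 2, and the high libraries were again wild-type replicate 1 and knockout replicate 1.

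The transcriptional regulators were low in level. Outside wild-type replicate 2 the highest value was 1.39 times the lowest for Nkx2-5 and 1.96 times for Myocd, against a member median of 1.98. Nkx2-5, the cardiac homeobox factor, measured 46.1 and 0.502 CPM in wild type and 35.0, 33.2 and 34.9 CPM in the knockout, with a log2 fold change of 0.26 ± 1.43 (SE; adjusted p = 0.989). Myocd, myocardin, the coactivator of serum response factor, measured 41.4 and 0.0186 CPM in wild type and 54.3, 81.2 and 44.6 CPM in the knockout, with 1.23 ± 1.90 (SE; adjusted p = 0.955). The 3 knockout values of Myocd lay above both wild-type values, the lowest of them just above wild-type replicate 1. Against wild-type replicate 1 alone, 10 members had an unadjusted p under 0.05 in edgeR, 1 higher (against 10.3% of all genes) and 9 lower (24.3% of the members, against 5.66% of all genes). Apart from Xirp1 these were lower in the knockout: Actc1, Tnnc1, Myoz2, Smpx, Adprhl1, Pln, Ckm, Pgam2 and Fabp3. Their log2 fold changes ran from -2.47 for Pln to -0.78 for Adprhl1, and the adjusted p of these 10 genes lay between 0.1405 and 0.301.

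Among the 4 libraries with heart muscle RNA, the members did not move as one block. Without wild-type replicate 2, the highest value of a member was 1.98 times its lowest in the median, with 19 members under 2-fold and 11 over 3-fold. Relative to wild-type replicate 1, the ratio was lower for 25 of 37 members in knockout replicate 1, 21 in replicate 2 and 20 in replicate 3. The extremes were Atp2a2 and Xirp1 in knockout replicate 1, at -1.71 and 1.09 on the log2 scale. In knockout replicate 2 they were Pln at -3.27 and Xirp1 at 2.25, and in knockout replicate 3 Ckmt2 at -4.94 and Tcap at 2.03. Genes with a greater merged exon length tended to have the higher ratios. The Spearman correlation of the ratio with that length across the 37 genes was 0.379, 0.563 and 0.558 for the 3 knockout libraries. This is a description across genes that share 1 denominator library, and the part of exon length in these differences was not tested.

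Some of the genes that differ between heart chambers differed along with Pln and Ckmt2, and the genes shown with values were chosen after their values were seen. Myl2, the ventricular regulatory light chain, measured 7269.8 and 9.85 CPM in wild type and 4546, 762 and 536 CPM in the knockout. Myh7, the beta myosin heavy chain, measured 1374 and 5.41 CPM in wild type and 4049, 726 and 242 CPM in the knockout. Both were highest in wild-type replicate 1 and knockout replicate 1, the libraries in which Pln and Ckmt2 were high. Myl7, the atrial regulatory light chain, measured 465 and 10.9 CPM in wild type and 150.2, 5349 and 7183 CPM in the knockout. Sln, sarcolipin, an atrial regulator of the calcium pump, measured 2.39 and 0.706 CPM in wild type and 0, 646 and 512 CPM in the knockout. Myl7 and Sln were thus high in knockout replicates 2 and 3, where Atp2a2 and Jph2 exceeded their values in knockout replicate 1. Atp2a2 did not split as Myl7 and Sln did, since its 1668 CPM in wild-type replicate 1 exceeded the 1179.5 CPM of knockout replicate 2. Nppa, the atrial natriuretic peptide gene, did not follow Myl7 and Sln. It measured 1292 and 0.651 CPM in wild type and 348, 45.9 and 517 CPM in the knockout, so knockout replicate 2 was its lowest knockout library. Nppb and Tnni3 followed neither order. Nppb measured 118 and 0.855 CPM in wild type and 245, 69.2 and 188 CPM in the knockout. Tnni3 measured 3584 and 4.61 CPM in wild type and 1700, 1421 and 2687 CPM in the knockout. Myl3 and Tnni1, like Myl2, were highest in wild-type replicate 1 and knockout replicate 1. Myl4 and Myh6, like Myl7, were highest in knockout replicates 2 and 3. The whole list of 11 chamber genes summed to 31498 and 114 CPM in wild type and 21849, 15129 and 20760.2 CPM in the knockout, with Sln at 0 counts in knockout replicate 1, and their part in the member differences was not tested. Of these 11 genes 0 were called, 6 were positive and the median log2 fold change was 1.00. Of 32 other cardiomyocyte genes 0 were called, 21 were positive and the median was 0.45. They summed to 9249 and 1168 CPM in wild type and 7329, 6890 and 7383 CPM in the knockout. Some of this list were higher in wild-type replicate 2 than in replicate 1, such as Gata4 at 178 and 445 CPM in wild type. The smallest p belonged to Flnc, filamin C, at 1.74 ± 0.40 (SE; adjusted p = 0.802). Flnc too was higher in wild-type replicate 2, at 20.3 and 42.2 CPM in wild type.

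**Figure D4:**
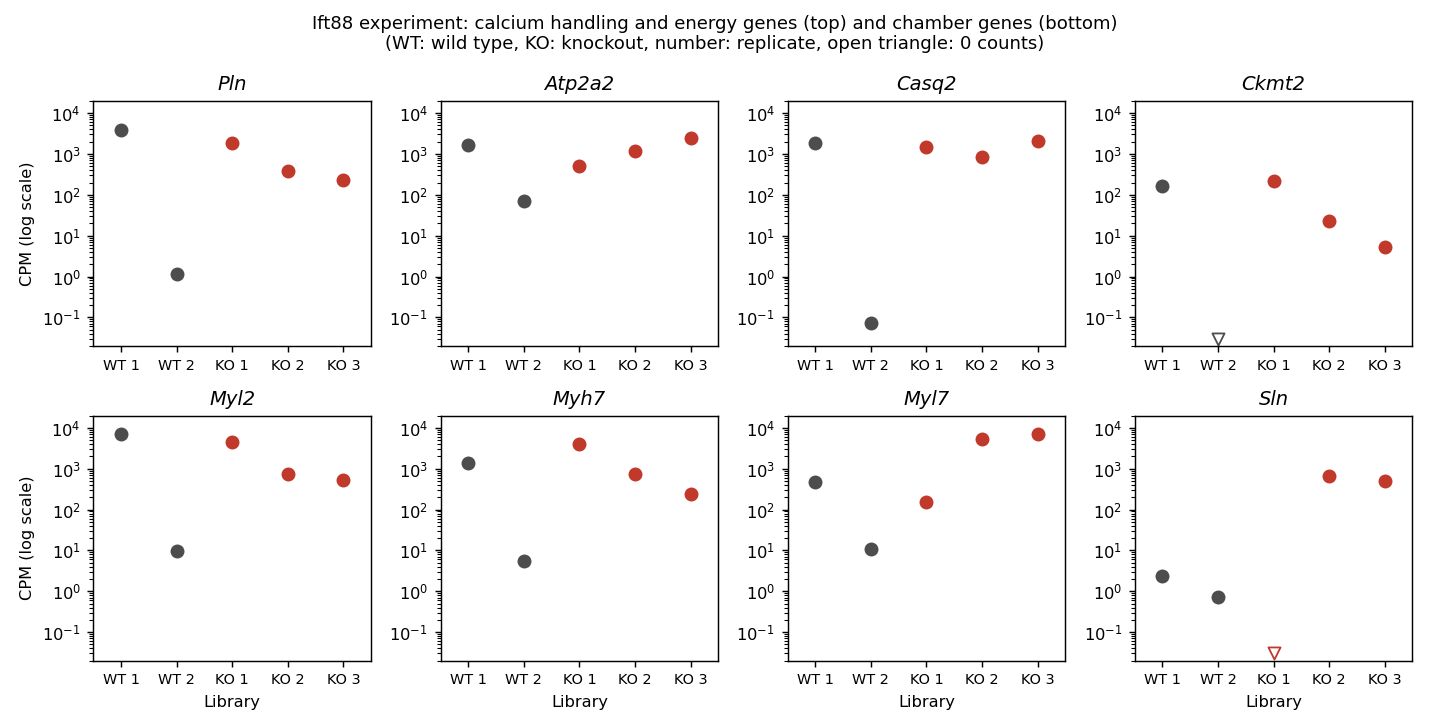
Each panel shows 1 gene of the Ift88 experiment, with its level in CPM on a log axis in the 2 wild-type (WT) and 3 knockout (KO) libraries; open triangles are 0 counts. Pln, Ckmt2, Myl2 and Myh7 are high in WT 1 and KO 1 and lower in KO 2 and KO 3, while Myl7 and Sln are high in KO 2 and KO 3, at 5349 and 7183 CPM for Myl7.

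Skeletal muscle genes were also read, since some members are shared with that tissue. The 16 genes of that list summed to 831 and 8.01 CPM in wild type and 431, 558 and 2614 CPM in the knockout. The sum of knockout replicate 3 was mostly Acta1, skeletal alpha-actin, at 2348 CPM, and the adult fast myosins Myh1, Myh2 and Myh4 were at 0 counts in every library of the experiment. Knockout replicate 3 was also the library with the highest Tcap and Myom2.

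The Dzip1 comparison asked which transcripts differ in leaflets heterozygous for the S14R change. By edgeR's test on 16160 genes, 0 members and 0 genes were called at an adjusted p of 0.05 (0% higher and 0% lower), and DESeq2 also called 0. At an unadjusted p under 0.05 there were 389 genes higher (2.41%) and 570 lower (3.53%), and 4 of the 37 members were among the higher ones. DESeq2 gave 13 such members, also all higher, against 1.96% of all genes in that direction. The members leaned one way by a small amount: 36 of 37 log2 fold changes were positive, against 49.9% of all genes, and 1 negative, against 50.1%. Their median was 0.087 against -0.00033 over all genes. Adjusted p-values of the members lay between 0.822 and 0.980. The 3 Dzip1 S14R/+ values lay above all 3 wild-type values in 8 members (21.6%, against 4.58% of all genes) and below all 3 in 0 (against 5.86%). The 8 were Mybpc3, Mylk3, Actn2, Nebl, Hspb7, Sh3bgr, Srl and Fabp3. The 37 values are read from the same 6 libraries, so these counts do not stand for separate observations.

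The authors' deposited table bears on the grouping of these libraries. Its column titles and the genotype labels give the same 3 S14R/+ and 3 wild-type libraries. The log2 fold changes in the authors' deposited table, however, followed the column order: across 13193 genes with a mean of at least 100 counts, their Spearman correlation was -0.973 with the difference between the first 3 columns and the last 3, and -0.614 with the difference between the labelled groups. The first 3 columns hold S14R/+ replicates 1 and 3 and wild-type replicate 2. For Ift88 the same correlation with the labelled groups was 0.881 across 11791 genes. The labels are used here throughout. With the Dzip1 libraries split by column order, first over last, edgeR called 0 genes, 35 of the 37 members were positive (against 48.9% of all genes) and their median was 0.064. The members thus leaned one way under both splits, which share most libraries of each side, and which libraries carry S14R was not tested.

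The lean moved with which wild-type library was left out. Dzip1 wild-type replicate 3 was the lowest of the 6 libraries for 22 members and replicate 1 for 12. The member sums of the S14R/+ libraries averaged 35929 ± 140 CPM (SD, n = 3) and those of the wild-type libraries 33732 ± 2019 CPM (SD, n = 3). Without wild-type replicate 3, 29 of the 37 members were positive, the median was 0.045 against -0.0029 over all genes, and 1 member had an unadjusted p under 0.05, against 1.19% of all genes higher. Without wild-type replicate 2, in contrast, 22 members, all higher, had an unadjusted p under 0.05, against 7.24% of all genes, the median was 0.14 against -0.0022 over all genes, and the lowest adjusted p was 0.0736, so 0 were called. Wild-type replicate 3 also had the highest sum of the valve interstitial genes, 9435 CPM. The 6 red cell genes summed to 430.5, 223 and 334 CPM in wild type and 118, 236 and 154 CPM in Dzip1 S14R/+. The part of this tissue mixture in the member values was not tested.

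Thin filament genes were the leading role here too, with Actc1 at 9652, 10145 and 8551 CPM in wild type and 10343, 9995 and 10478 CPM in Dzip1 S14R/+. The values overlapped, and the log2 fold change of Actc1 was 0.13 ± 0.089 (SE; adjusted p = 0.863). Tnnt2 measured 4070.1, 4628 and 4109.8 CPM in wild type and 4444, 4618 and 4364 CPM in Dzip1 S14R/+, with wild-type replicate 2 as high as the S14R/+ libraries and a log2 fold change of 0.080 ± 0.074 (SE; adjusted p = 0.888). Tnnc1 and Tpm1 had log2 fold changes of 0.12 ± 0.069 (SE) and 0.082 ± 0.065 (SE). Per kilobase of exon, Actc1 again ranked first at 5285 to 6476 RPKM and Tnnc1 next at 872 to 1056 RPKM. Tnnt2 had more CPM than Tnnc1 but ranked below it, with a merged exon length of 7752 against 1041 bases.

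Of the thick filament, titin and M-band genes, Mybpc3 measured 3066, 3034 and 2799 CPM in wild type and 3175, 3131 and 3186 CPM in Dzip1 S14R/+. These ranges did not overlap, though the gap was narrow, and the log2 fold change was 0.10 ± 0.062 (SE; adjusted p = 0.843). Mylk3 measured 287, 309 and 276 CPM in wild type and 309, 318 and 311 CPM in Dzip1 S14R/+, again with a narrow gap and 0.12 ± 0.050 (SE; adjusted p = 0.828), at an unadjusted p of 0.0382. Myom1 measured 1069, 1010.1 and 946 CPM in wild type and 1071, 1041 and 1041 CPM in Dzip1 S14R/+, an overlapping pair of ranges with 0.072 ± 0.056 (SE; adjusted p = 0.869). Ttn had a log2 fold change of 0.075 ± 0.11 (SE). Myom2 was the exception among the 37, at -0.12 ± 0.10 (SE), and its level was low, 5.31 to 6.77 CPM.

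All 13 Z-disc, costamere and actin-linked genes had positive log2 fold changes, with a median of 0.087. Actn2 measured 1837, 1833 and 1597 CPM in wild type and 1912, 1897 and 1894 CPM in Dzip1 S14R/+. The S14R/+ libraries were close to each other and above the wild-type ones, with 0.13 ± 0.067 (SE; adjusted p = 0.828). Hspb7 measured 1104, 1160.1 and 1079.5 CPM in wild type and 1189.8, 1184 and 1194 CPM in Dzip1 S14R/+, and its log2 fold change was 0.11 ± 0.050 (SE; adjusted p = 0.828). Sh3bgr, a small SH3-binding protein, measured 399, 429 and 369 CPM in wild type and 434, 448 and 451 CPM in Dzip1 S14R/+. Its S14R/+ mean was 11.3% above the wild-type mean, for 0.17 ± 0.059 (SE; adjusted p = 0.822) and an unadjusted p of 0.0185. The other 10 genes of this role had log2 fold changes from 0.036 for Tcap to 0.13 for Itgb1bp2.

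The 9 calcium handling genes were all positive in this experiment, with a median of 0.072 and 0 called. Atp2a2 measured 2037, 2019 and 1847 CPM in wild type and 2151, 1967 and 2039 CPM in Dzip1 S14R/+, and Pln 701, 694 and 625 CPM in wild type and 724, 733 and 698 CPM in Dzip1 S14R/+. Both pairs of ranges overlapped, with log2 fold changes of 0.072 ± 0.063 (SE; adjusted p = 0.880) for Atp2a2 and 0.11 ± 0.056 (SE; adjusted p = 0.828) for Pln. Casq2 spread more widely, at 155, 209 and 174 CPM in wild type and 180.3, 216 and 174 CPM in Dzip1 S14R/+, with a highest value 1.39 times its lowest and a log2 fold change of 0.094 ± 0.11 (SE; adjusted p = 0.901). Srl was the 1 member of this role whose groups did not overlap, at 0.12 ± 0.056 (SE). Trdn and Cacna1c had the smallest differences, 0.019 ± 0.055 and 0.024 ± 0.061 (SE).

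Of the energy supply genes, Ckmt2 had the widest difference of the 37 at 6.93, 6.11 and 6.04 CPM in wild type and 6.90, 8.57 and 7.98 CPM in Dzip1 S14R/+. The groups overlapped at S14R/+ replicate 1, and the log2 fold change was 0.31 ± 0.10 (SE; adjusted p = 0.822), with an unadjusted p of 0.0134. Fabp3 measured 142, 153 and 142 CPM in wild type and 156, 157 and 158 CPM in Dzip1 S14R/+. Its ranges did not overlap, with 0.12 ± 0.042 (SE; adjusted p = 0.822) and an unadjusted p of 0.0195. Ckm measured 32.9, 41.9 and 34.3 CPM in wild type and 34.4, 42.1 and 33.5 CPM in Dzip1 S14R/+, and its log2 fold change of 0.023 ± 0.11 (SE; adjusted p = 0.980) was within the spread of either group. Nkx2-5 measured 133, 129 and 109 CPM in wild type and 133, 141 and 124 CPM in Dzip1 S14R/+, with 0.12 ± 0.074 (SE; adjusted p = 0.860). Myocd measured 133, 128 and 114 CPM in wild type and 129, 128 and 135 CPM in Dzip1 S14R/+, with 0.073 ± 0.058 (SE; adjusted p = 0.869), so both regulators overlapped between the groups.

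**Figure D5:**
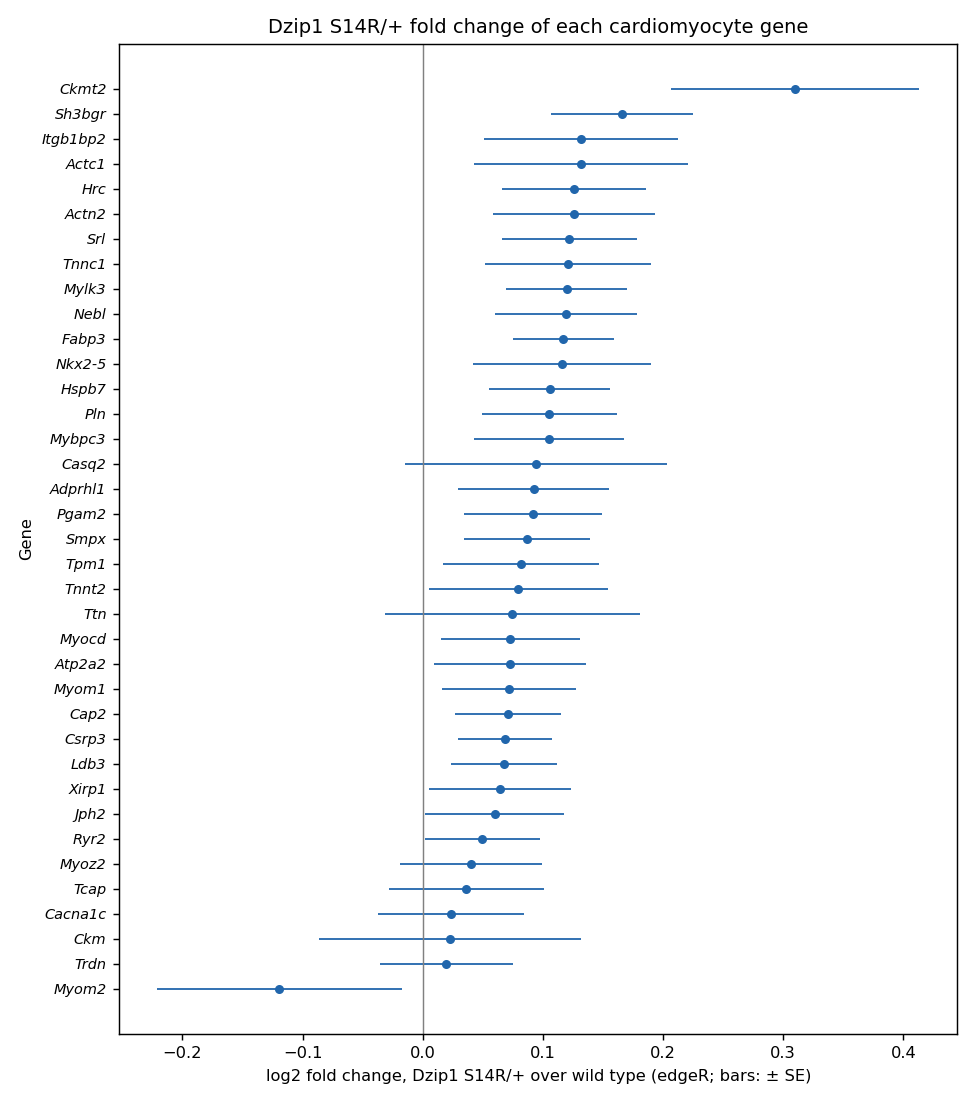
Points give the log2 fold change of Dzip1 S14R/+ over wild type from edgeR for each of the 37 genes, and bars give ± SE (3 libraries a group). All points but Myom2 (-0.12) lie above 0, Ckmt2 is highest at 0.31, and 0 genes passed the adjusted threshold.

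Related lists were read from the same Dzip1 fit. Of the 11 chamber genes 0 were called, 8 were positive and the median log2 fold change was 0.12; Myl4, the atrial essential light chain, had the smallest p, at 0.14 ± 0.055 (SE; adjusted p = 0.828). Of the 32 other cardiomyocyte genes 0 were called, 25 were positive and the median was 0.063, with Fhod3, a sarcomeric formin, at 0.16 ± 0.048 (SE; adjusted p = 0.822). Of the 12 valve interstitial genes 2 were positive, with 0 called and a median of -0.068. Across the 6 libraries the highest value of a member was 1.18 times its lowest in the median, from 1.09 for Csrp3 to 1.42 for Ckmt2.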

How the data were processed

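RNA was extracted with a column kit and treated with DNase, and libraries were made from low-input RNA with the SMART-Seq v4 kit, per the labels' protocols. The values are whole-number counts per gene deposited by the authors, 1 table for each experiment. The titles of the Ift88 libraries are marked as re-analyzed, and those of the Dzip1 libraries are not. The submitters' processing notes name FastQC 0.11.5, cutadapt 1.11, HTSeq, DESeq2 and DESeq, with builds mm10 and GRCm38. The aligner, annotation and strand setting were not given in the sources used here. Of the statistics columns deposited beside the counts by the authors, only the log2 fold changes, deposited as the authors computed them between 2 groups of libraries per the file headers, were read, to see which libraries they compare.

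From the counts, CPM was computed as a level. RPKM used merged exon lengths of GENCODE M21. Each experiment was fitted apart with edgeR 4.0.16 (R 4.3.3, limma 3.58.1, TMM scaling, filterByExpr, quasi-likelihood F test, Benjamini-Hochberg over all genes tested, threshold 0.05). On simulated data modelled on each experiment, this test missed the planted changes for Ift88 and recovered most of them for Dzip1. DESeq2 1.42.0 was an alternative, which for Ift88 recovered some of the planted changes and also called genes left unchanged. Other alternatives were RLE, upper-quartile and library-size scaling, counts of at least 1 or a mean of at least 50, leaving out each library, the IR28N libraries alone and, added after seeing the data, the column-order split of Dzip1. No 2 libraries agreed within sampling noise (chi-square per degree of freedom at least 9.38). Counting intervals and limits cover counting error only. The members and lists were chosen with earlier results of these data known. Values in every library are given for the 2 members of each role with the highest mean CPM and for the 4 with the smallest p in an experiment.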

Additional observations from a re-analysis of the deposited data

How the results depend on the processing

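DESeq2 called 358 Ift88 genes higher and 18 lower in place of 0, and the cause was not tested. With 1 library left out at a time, Ift88 genes called ranged from 0 to 178 higher and 0 to 9 lower, members called higher from 0 to 32, and the member median from -0.43 to 9.62; the high ends come without wild-type replicate 1, which leaves wild-type replicate 2 as the comparator. Dzip1 genes called lower ranged from 0 to 10, with the highest on leaving out wild-type replicate 2. The S14R/+ member sum was 36093 CPM with TMM scaling and 35312 CPM without Ttn. The member median of Ift88 turned negative without wild-type replicate 2 (-0.43) and in the IR28N libraries alone (-0.50). Of the other settings tried for these counts, medians and sums, 131 values stayed within 1.5 times the count or within 1 SD between libraries. That SD was wide for Ift88, at 5.82 log2 units for the member median. For the wild-type member sum it was 44181 CPM around a mean of 31573 CPM. With 2 libraries, leaving 1 out cannot move the mean by more than the SD, so that check could not fail for this sum.

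Ift88 log2 fold changes that turned sign were, in the IR28N libraries alone, Actc1 -1.04, Tnnt2 -0.94, Mybpc3 -0.85, Actn2 -0.54, Atp2a2 -1.29, Nkx2-5 -0.74 and Tcap -0.010. With 1 library left out, the ranges were Actc1 -0.96 to 9.15; Tnnt2 -0.85 to 5.93; Mybpc3 -0.80 to 11.20; Actn2 -0.31 to 8.01, Hspb7 -0.040 to 11.91, Atp2a2 -0.58 to 4.31, Pln -2.96 to 9.56, Ckm -1.62 to 14.63, Fabp3 -1.24 to 8.77, Nkx2-5 -0.73 to 6.11. Actc1 was -0.035 in DESeq2 and -0.036 with RLE scaling, and Fabp3 was 0.061 by library size alone, a scaling that moves the median of all genes from -0.013 to 0.10. In the Dzip1 experiment Ckm ranged from -0.088 to 0.15. No paired analysis was possible because the labels give the groups of an experiment no shared replicate numbers. A term for the title prefix leaves the genotype difference to the IR28N libraries, whose values are given above. Wild-type replicate 2 was the deepest Ift88 library, and 13 members had 3 counts or fewer there. The part of depth in these member counts was not tested. Under the column-order split of the Dzip1 libraries, an alternative chosen after seeing the data, Ckmt2 turned to -0.024.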

Other observations

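Outside Ift88 wild-type replicate 2 the member sums ran from 34879 to 62814 CPM in the Ift88 experiment and from 31562 to 36056 CPM in the Dzip1 experiment, and the mix of genes differed. Values are set side by side without a test, since the tables were processed apart and experiment, age and handling cannot be told apart. With the Ift88 experiment first (4 libraries) and the Dzip1 experiment next (6 libraries), Ckm ranged over 833 to 3664 against 32.9 to 42.1 CPM, and Myom2 over 69.0 to 248 against 5.31 to 6.77 CPM. Casq2 ranged over 846 to 2071 against 155 to 216 CPM and Fabp3 over 682 to 1747 against 142 to 158 CPM. These energy, M-band and calcium store genes were higher in the Ift88 libraries without overlap. The reverse held for the L-type channel gene Cacna1c at 9.14 to 12.9 against 156 to 186 CPM and for Hrc at 7.66 to 15.7 against 160.1 to 203 CPM. Jph2, at 17.1 to 74.7 against 355 to 412 CPM, and Nebl, at 15.1 to 28.2 against 157 to 191 CPM, were also higher in the Dzip1 libraries, as was Ryr2 at 35.3 to 124 against 337 to 378 CPM. Myh7, the beta myosin heavy chain, stood at 242 to 4049 against 10561 to 13399 CPM. Tpm1 and Actn2 overlapped between the experiments, at 2710 to 5044 against 2914 to 3251 CPM for Tpm1.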
